A study of Rattus norvegicus with 16 samples.

Results

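A set of 9 genes that mark macrophages, Cd68, Csf1r, Adgre1, Cd163, Mrc1, Cd14, Lyz2, Aif1 and Cx3cr1, was followed through rat knee cartilage. They were picked by symbol and make up 9 of the 23552 genes in the expression table. Each symbol stood on a single row, and all 9 passed the filter on low values that left 14337 genes for testing. RNA had been sequenced from 16 libraries, 4 in each of 4 groups, all from rats aged 10 weeks. The groups were healthy cartilage (library name Sham), osteoarthritic cartilage (PBS), and osteoarthritic cartilage given hyaluronic acid with cells and a drug (HCD, here HA) or a coacervate with cells and a drug (CCD, here coacervate). A coacervate is a polymer-rich liquid phase that can hold other substances. The labels name neither the cells nor the drug, do not say how osteoarthritis was produced, and leave unstated if each replicate was an animal of its own. P-values therefore measure only the spread between these libraries. Cells and drug came together with each carrier, so their parts cannot be told apart.

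Macrophages are phagocytes that are seeded into tissues before birth or enter later as blood monocytes. In a joint they sit mainly in the synovium, the fat pad and the marrow beneath the cartilage, and cartilage itself holds few. Many depend on the receptor encoded by Csf1r. Resident cells differ from incoming ones in scavenger and chemokine receptors, which is why the 9 genes fall into classes. Csf1r, Adgre1 (the F4/80 antigen), Cd68 (a lysosomal glycoprotein), Lyz2 (lysozyme) and Aif1 (the calcium-binding protein IBA1) mark the lineage. Cd14, a co-receptor for endotoxin, and Cx3cr1, the receptor of fractalkine, mark sensing and placement, and Cd163, the receptor for haemoglobin bound to haptoglobin, and Mrc1, the mannose receptor, mark scavenging cells of the kind found resident in tissue. None belongs to macrophages alone. Neutrophils also carry Lyz2 and Cd14, osteoclasts and their precursors carry Csf1r, and some endothelial cells carry Mrc1.

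Promoters are shown for 3 members, the lineage markers Cd68 and Lyz2 and the scavenger receptor Cd163. They were chosen because over 14 of the libraries Cd68 and Lyz2 varied together while Cd163 had a negative correlation with both. Neither correlation of Cd163 passed there (adjusted permutation p = 0.302 with Cd68 and 0.175 with Lyz2). Between Cd163 and Cd68, r was -0.12 over all 16 libraries and 0.26 with group means removed. Each sequence is the 250 bases before the gene's start in RefSeq on build GRCr8, read on the gene's strand. Capitals mark GAGGAA or its reverse complement, the core that the myeloid factor PU.1 can bind.
Cd68 (chr10:54882442-54882691, minus strand): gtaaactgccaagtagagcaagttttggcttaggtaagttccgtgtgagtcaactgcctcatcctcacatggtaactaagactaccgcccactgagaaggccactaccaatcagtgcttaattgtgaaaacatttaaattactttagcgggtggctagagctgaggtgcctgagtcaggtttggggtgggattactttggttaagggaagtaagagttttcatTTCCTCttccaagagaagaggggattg
Lyz2 (chr7:54798012-54798261, minus strand): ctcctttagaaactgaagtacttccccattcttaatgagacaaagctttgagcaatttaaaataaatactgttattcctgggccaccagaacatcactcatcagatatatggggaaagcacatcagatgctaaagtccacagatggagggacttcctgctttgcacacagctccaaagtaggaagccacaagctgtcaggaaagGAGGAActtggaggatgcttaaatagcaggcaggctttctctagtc
Cd163 (chr4:158770524-158770773, plus strand): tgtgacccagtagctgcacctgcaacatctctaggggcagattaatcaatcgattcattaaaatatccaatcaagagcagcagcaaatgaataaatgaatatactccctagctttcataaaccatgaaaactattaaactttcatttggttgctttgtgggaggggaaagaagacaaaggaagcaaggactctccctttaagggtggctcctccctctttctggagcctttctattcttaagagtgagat
The core lay 27 bases before the start of Cd68 and 46 bases before that of Lyz2, and the Cd163 window did not hold these letters. Promoter windows of 300 bases, running to 50 bases past the start, were in the table for 8 members (Aif1 was the other). On either strand 6 of the 8 held GAGGAA: Cd68, Csf1r, Adgre1, Mrc1, Cd14 and Lyz2. Among all 33469 promoters of that length 27.6% held it. TTGCNNAA, a core for C/EBP factors, was in the windows of Adgre1 and Lyz2 and in 10.6% of all promoters. These matches describe letters and not binding.

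The libraries held RNA of many cell types. Total counts were 36988722 to 50725189 per library. Chondrocyte markers (8 of 8 tested) summed to 309 to 925 FPKM, a value scaled to gene length and library size, while 5 globin genes took 9.57% to 20.6% of the counts. On the first principal component, osteoarthritic replicates 2 and 3 lay at 69.6 and 58.9 and all other libraries at -32.3 to 12.7. The globin genes took 20.6% and 19.98% of counts in these libraries, and in osteoarthritic replicates 1 and 4 they took 12.0% and 9.57%. Chondrocyte markers summed to between 309 and 385 FPKM in replicates 2 and 3 and to between 877 and 894 FPKM in replicates 1 and 4. Fibroblast and synovial lining markers (8 of 8 tested) summed to between 1047 and 1208 FPKM and to between 3347 and 3705 FPKM in the same pairs of libraries. Values without these libraries therefore stand beside many of the results that use the osteoarthritic group. Such values rest on replicates 1 and 4 alone for that group. No marker of the other cell types that was in the table was at 0 in every library.

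Levels can be compared between genes only per length. On the FPKM scale Lyz2 stood far above the other markers, with a mean of 4579 over the 16 libraries that only 11 tested genes exceeded. Cd68 (108), Csf1r (56.4), Cd163 (28.3) and Mrc1 (19.1) came next. Aif1 (17.0), Cd14 (14.7), Adgre1 (9.22) and Cx3cr1 (3.06) followed. In healthy cartilage Lyz2 was at 3690 ± 806, Cd68 at 96.3 ± 7.38, Csf1r at 57.1 ± 3.33 and Cd163 at 34.3 ± 8.14 FPKM (SD, n = 4), and these did not overlap between libraries. Mrc1 (19.4 ± 4.11) and Aif1 (15.8 ± 1.42) did not differ beyond their spread, nor did Adgre1 (9.84 ± 3.78) and Cd14 (9.45 ± 1.63). Aif1 and Adgre1 overlapped through healthy replicate 1, the highest for Adgre1. Cx3cr1 was lowest at 2.00 ± 0.398, below every value of the others. Within a gene, the highest library had from 2.43 times (Lyz2) to 3.96 times (Cx3cr1) the FPKM of the lowest. Every marker was read in every library. The table also holds Lyc2, a neighbouring lysozyme gene, at 32.1 to 164 FPKM. How reads common to both were assigned is not given in the sources used here, so the Lyz2 level carries that uncertainty.

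**Figure D1:**
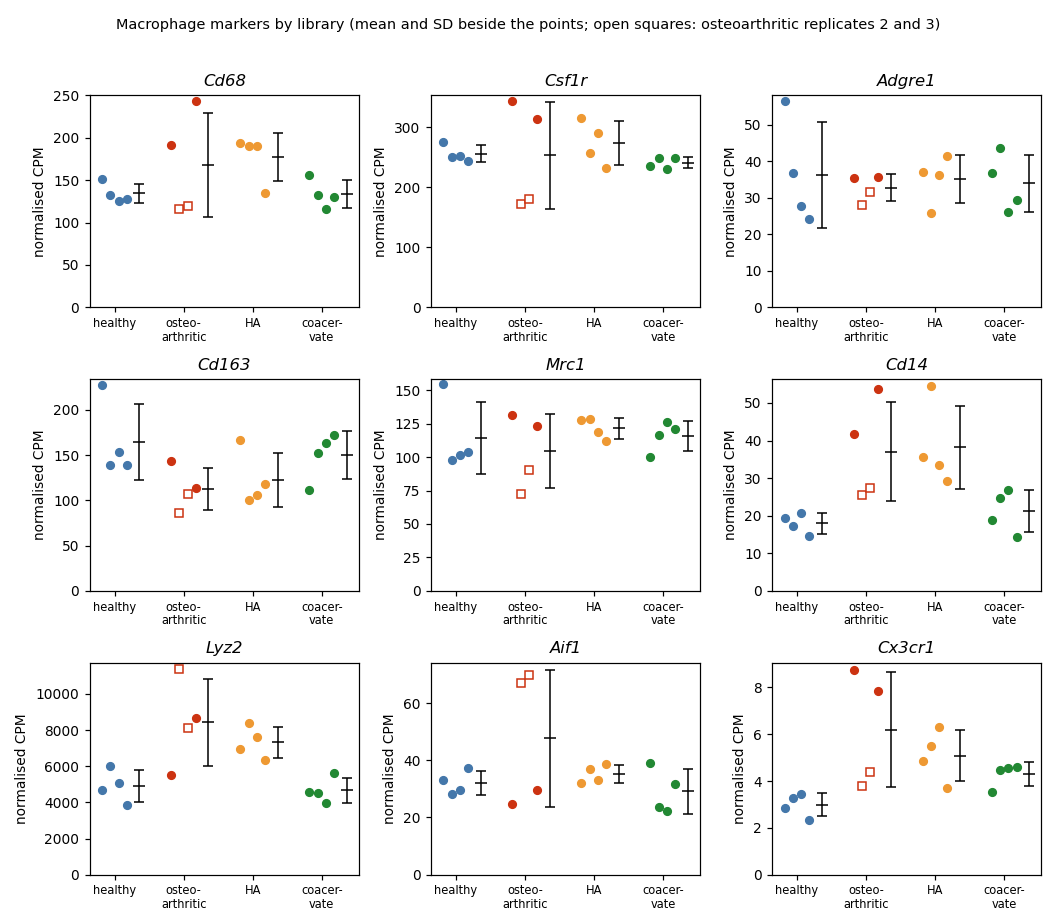
Normalised CPM (the count relative to the TMM-scaled library, linear axis from 0) of the 9 markers in the 4 libraries of each group, with the mean and SD beside the points. Open squares are osteoarthritic replicates 2 and 3, which lie at 116 and 120 CPM for Cd68 against 191 and 243 in replicates 1 and 4, and at 67.0 and 69.7 CPM for Aif1 against 24.7 and 29.5.

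Macrophage RNA was first compared between osteoarthritic and healthy cartilage. Cd14 and Cx3cr1 had fitted levels 2.06 and 2.08 times as high and did not overlap between the groups, Lyz2 was higher, Cd163 was lower, and Csf1r, Adgre1 and Mrc1 had group means close to those of healthy cartilage. None of the 9 markers passed edgeR's quasi-likelihood test over all 14337 genes at an adjusted p of 0.05, where 0.502% of genes passed. At an unadjusted p under 0.05 there were 4 of 9, against 17.8% of all genes. DESeq2 called 3 of 9, against 2.92% of all genes, and limma 0, against 0.146%. The 9 markers had a median log2 fold change of 0.32, against 0.01 for all tested genes, with 5 positive and 4 negative. In bulk tissue, fewer cells of a type and less RNA per cell cannot be told apart. These and the following values are on the scale of normalised CPM, the count divided by a library size scaled with TMM, which compares libraries and not genes.

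Cx3cr1, whose ligand holds monocytes and resident macrophages in place (ENSRNOG00000018509, rn6 chromosome 8, 128740756 to 128754514), was the marker with the smallest p. It was at 2.84, 3.26, 3.46 and 2.36 CPM in healthy replicates 1 to 4 and at 8.74, 3.81, 4.40 and 7.86 CPM in osteoarthritic replicates 1 to 4. Each osteoarthritic library lay above each healthy one, and replicates 2 and 3 only narrowly so. The log2 fold change was 1.06 ± 0.26 (SE, edgeR adjusted p = 0.0861). Without osteoarthritic replicates 2 and 3 it was 1.47 (adjusted p = 0.0116), and it also passed without osteoarthritic replicate 1 alone (0.85, edgeR adjusted p = 0.04997), without replicate 2 alone (1.24, adjusted p = 0.0409) and in DESeq2 (adjusted p = 0.00603). Over all 14337 genes, 164 passed in edgeR without osteoarthritic replicates 2 and 3, against 72 with all libraries. Without replicate 1 alone 1122 passed, and without replicate 2 alone 62. Counts of Cx3cr1 were low, 110 to 419 per library.

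Cd14 (ENSRNOG00000017819, rn6 chromosome 18, 29560365 to 29562153) was likewise higher in osteoarthritic replicates 1 and 4 than in 2 and 3. Its CPM values were 19.3, 17.3, 20.9 and 14.5 in healthy and 41.8, 25.4, 27.5 and 53.6 in osteoarthritic replicates 1 to 4, with no overlap. The log2 fold change was 1.04 ± 0.26 (edgeR adjusted p = 0.0906) and, without osteoarthritic replicates 2 and 3, 1.40 (adjusted p = 0.0211). It passed without osteoarthritic replicate 1 (0.98, edgeR adjusted p = 0.0451), where 1122 of all genes passed, and in DESeq2 (adjusted p = 0.00713). For 2 of 9 markers, Cd14 and Cx3cr1, the groups did not overlap, both higher in osteoarthritic cartilage, where 6.33% of all tested genes did not overlap in either direction. This separation depended on the scaling. On the deposited FPKM, osteoarthritic replicate 2 lay inside the healthy range for Cd14 (10.55, with healthy libraries at 7.32 to 11.25) and for Cx3cr1 (2.01, with healthy libraries at 1.51 to 2.37).

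Lyz2, which makes the lysozyme that breaks bacterial cell walls (ENSRNOG00000005825, rn6 chromosome 7, 60335969 to 60341264), was at 4693, 6036, 5049 and 3864 CPM in healthy and 5509, 11354, 8141 and 8685 CPM in osteoarthritic replicates. The groups overlapped through osteoarthritic replicate 1. The log2 fold change was 0.78 ± 0.21 (edgeR adjusted p = 0.12), and 0.52 (edgeR adjusted p = 0.256) without osteoarthritic replicates 2 and 3. The gene passed only in DESeq2 (adjusted p = 0.00708) and without osteoarthritic replicate 1 (0.94, edgeR adjusted p = 0.023). In the latter fit 1122 of all genes passed. Of 9 neutrophil markers 8 were tested, and 7 of those had a positive log2 fold change, none of which passed in edgeR. Their median was 0.32 over all libraries and -0.12 without osteoarthritic replicates 2 and 3. Their summed FPKM was 8831 to 11059 in healthy cartilage, between 8265 and 10824 in osteoarthritic replicates 1 and 4, and between 17600 and 25658 in replicates 2 and 3. On the CPM scale Lyz2 was at 5509 and 8685 in osteoarthritic replicates 1 and 4 and at 11354 and 8141 in replicates 2 and 3. DESeq2 called 1 of the 8 neutrophil markers, against 2.92% of all genes, and limma 0, against 0.146%. Their part in the Lyz2 difference was not tested.

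Cd68, in the lysosomes of macrophages (ENSRNOG00000037563, rn6 chromosome 10, 56268720 to 56270640), and Csf1r, the receptor for the growth factors CSF1 and IL-34 (ENSRNOG00000018414, rn6 chromosome 18, 56414488 to 56457869), split the osteoarthritic group. Cd68 was at 151, 133, 126 and 128 CPM in healthy and 191, 116, 120 and 243 CPM in osteoarthritic replicates 1 to 4. Csf1r was at 276, 251, 252 and 244 CPM in healthy and 345, 173, 181 and 314 CPM in osteoarthritic replicates. For both genes replicates 1 and 4 lay above every healthy library and replicates 2 and 3 below every one. Over all libraries the log2 fold changes were 0.32 ± 0.20 for Cd68 (edgeR adjusted p = 0.41) and -0.01 ± 0.19 for Csf1r (adjusted p = 0.974). Without replicates 2 and 3 they were 0.69 (edgeR adjusted p = 0.0475) and 0.36 (adjusted p = 0.16), so Cd68 passed there and Csf1r turned positive without passing. That fit keeps only osteoarthritic replicates 1 and 4, the libraries above every healthy one for both genes.

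Aif1, which takes part in ruffling of the cell membrane and phagocytosis (ENSRNOG00000000853, rn6 chromosome 20, 5161333 to 5166448), showed the opposite split. It stood at 33.2, 28.3, 29.5 and 37.3 CPM in healthy and 24.7, 67.0, 69.7 and 29.5 CPM in osteoarthritic replicates, so the libraries low in Cd68 and Csf1r were high in Aif1. Its log2 fold change of 0.57 ± 0.28 (edgeR adjusted p = 0.299) became -0.25 without replicates 2 and 3. Between osteoarthritic replicates 2 and 3 and replicates 1 and 4, the mean of Aif1 was 2.52 times as high and that of Lyz2 1.37 times. In the reverse direction, replicates 1 and 4 had 2.02 times the mean of Cx3cr1, 1.86 times that of Csf1r, 1.84 times that of Cd68, 1.80 times that of Cd14, 1.56 times that of Mrc1, 1.33 times that of Cd163 and 1.20 times that of Adgre1.

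The scavenger receptors were not among the higher markers. Cd163 (ENSRNOG00000010253, rn6 chromosome 4, 156752082 to 156785467) was at 227, 140, 153 and 139 CPM in healthy and 143, 86.1, 108 and 113 CPM in osteoarthritic replicates. Only osteoarthritic replicate 1 reached the healthy range. The log2 fold change was -0.55 ± 0.21 (edgeR adjusted p = 0.217), and -0.36 without replicates 2 and 3. Mrc1, which binds and takes up mannosylated proteins (ENSRNOG00000018251, rn6 chromosome 17, 81352700 to 81433743), was at 154, 97.6, 101 and 104 CPM in healthy and 132, 72.8, 90.0 and 123 CPM in osteoarthritic replicates (-0.13 ± 0.18, edgeR adjusted p = 0.707, and 0.15 without osteoarthritic replicates 2 and 3). Adgre1, an adhesion receptor, (ENSRNOG00000046254, rn6 chromosome 9, 9431860 to 9585865) was at 56.3, 36.8, 27.6 and 24.1 CPM in healthy and 35.5, 28.0, 31.6 and 35.7 CPM in osteoarthritic replicates (-0.15 ± 0.23, edgeR adjusted p = 0.749, and -0.031 without osteoarthritic replicates 2 and 3). Without healthy replicate 1, the highest for both, these became 0.05 for Mrc1 and 0.15 for Adgre1.

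Cd163 relative to Cd68 can be read within a library as the ratio of their FPKM, free of the scaling between libraries. Cd68 itself ran from 65.9 to 179 FPKM over the libraries, so the ratio is not a share of macrophage RNA. Ratios to other markers were not taken. This ratio was chosen after the values were seen and is a description. It was 0.438, 0.306, 0.354 and 0.316 in healthy replicates and 0.218, 0.216, 0.262 and 0.136 in osteoarthritic replicates. The groups did not overlap, and osteoarthritic replicates 2 and 3, which differed from 1 and 4 in both genes, lay in the same range for the ratio. After HA treatment it was 0.250, 0.154, 0.161 and 0.256, again below every healthy library, and after coacervate treatment 0.209, 0.337, 0.412 and 0.386, with only replicate 1 below the healthy range. Mrc1 over Cd68 overlapped between all groups, with means of 0.200 ± 0.0296 for healthy, 0.153 ± 0.0250 for osteoarthritic, 0.165 ± 0.0217 for HA and 0.210 ± 0.0443 for coacervate libraries (SD, n = 4). A ratio shows unequal levels and not which gene differs.

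**Figure D2:**
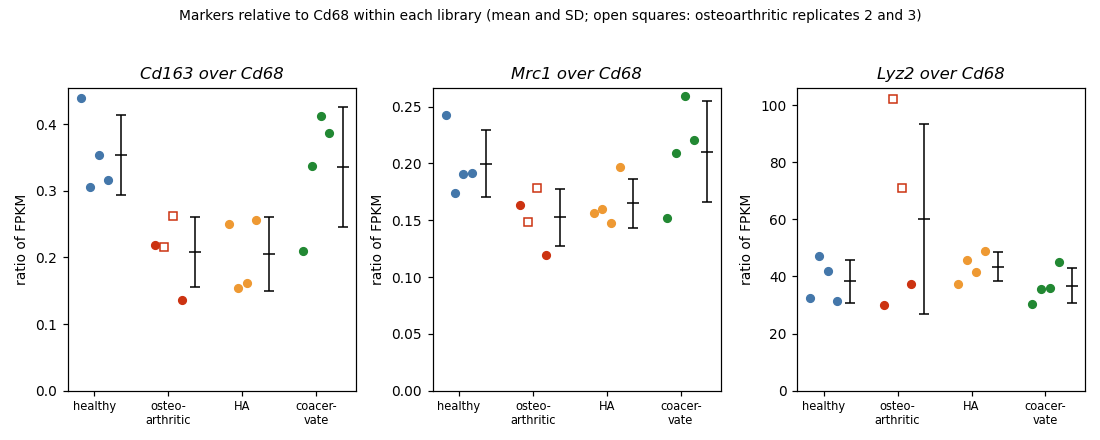
Ratio of the FPKM of Cd163, Mrc1 and Lyz2 to that of Cd68 in each library (linear axes from 0, mean and SD beside the points, open squares for osteoarthritic replicates 2 and 3). Cd163 over Cd68 was 0.306 to 0.438 in healthy libraries and 0.136 to 0.262 in osteoarthritic ones.

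Treatment with HA, cells and drug was compared with osteoarthritic cartilage to ask what it changed. With all libraries in the fit, the markers stayed near the osteoarthritic mean. Log2 fold changes ran from -0.44 ± 0.28 for Aif1 to 0.22 ± 0.18 for Mrc1. Their median was 0.08, against -0.01 over all genes. Of the 9 markers 0 passed in edgeR, where 0% of all tested genes did. At an unadjusted p under 0.05 there were 0 of 9, against 6.34% of all genes, and DESeq2 and limma called 0. The groups overlapped for each marker, where 1.90% of all genes did not. Cd14 was at 35.7, 54.4, 33.4 and 29.2 CPM in HA replicates 1 to 4 (0.04 ± 0.25 against osteoarthritic), Cx3cr1 at 4.84, 5.50, 6.31 and 3.70 CPM (-0.29 ± 0.25) and Lyz2 at 6952, 8367, 7607 and 6326 CPM (-0.20 ± 0.21). For each of these 3 genes all 4 HA values lay above the highest healthy library, on the FPKM scale as well. Cd68 was at 194, 191, 191 and 135 CPM, so 3 of 4 libraries were above the healthy range, and Csf1r was at 316, 257, 290 and 231 CPM, with values on both sides of the healthy range. The scavenger receptor Cd163 was at 166, 101, 106 and 118 CPM, 3 of them below every healthy library, and Mrc1 at 128, 128, 119 and 112 CPM, all inside the healthy range. Aif1 (31.9, 36.9, 33.0 and 38.7 CPM) and Adgre1 (37.02, 25.8, 36.2 and 41.4 CPM) lay inside or close to the healthy range. Signs in this comparison turned with the libraries used. Without osteoarthritic replicates 2 and 3 the log2 fold changes were -0.29 for Cd68, -0.27 for Csf1r, -0.32 for Cd14 and 0.38 for Aif1. Only Cx3cr1 kept its sign there, and it lay further from the osteoarthritic mean, at -0.71. None of the 9 markers passed. Without HA replicate 2, the highest for Cd14, Cd14 was at -0.18, and without HA replicate 1, the highest for Cd163, Cd163 was at -0.07.

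Set against healthy cartilage, the HA-treated group had Cd14 at 38.2 ± 11.1 against 18.0 ± 2.73 CPM (SD, n = 4), a log2 fold change of 1.08 ± 0.26 (edgeR adjusted p = 0.128). Cx3cr1 was at 0.77 ± 0.26 (adjusted p = 0.363), Lyz2 at 0.57 ± 0.21 (adjusted p = 0.442), Cd68 at 0.40 ± 0.20 and Cd163 at -0.42 ± 0.21. Of the 9 markers 0 passed, where 0.160% of all genes did. There were 3 of 9 at an unadjusted p under 0.05, against 8.25% of all genes, and DESeq2 called 1 (Cd14, adjusted p = 0.00757), against 1.11%, and limma 0. The groups did not overlap for 3 of 9, the 3 genes above, against 9.83% of all genes. These values rest on the same healthy libraries as the first comparison and are not a second test of it.

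**Figure D3:**
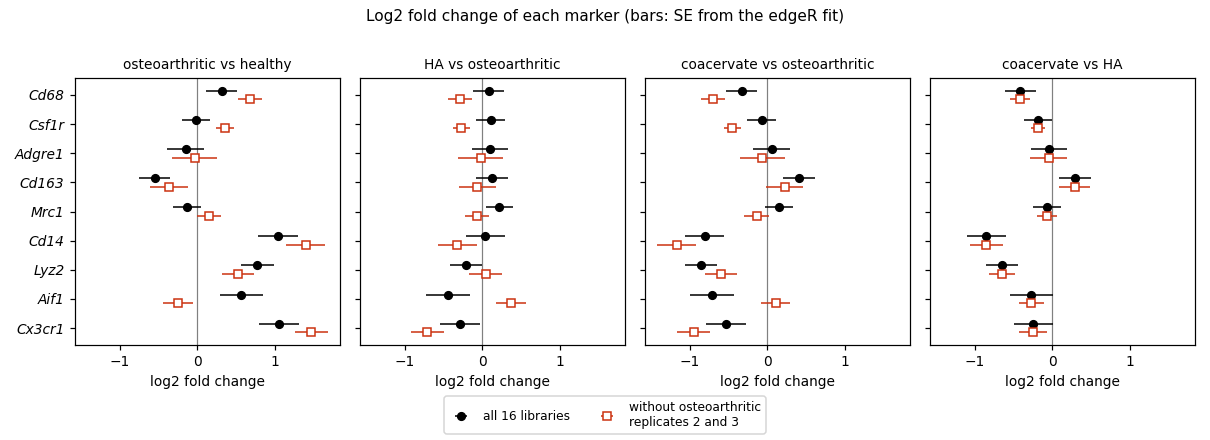
Log2 fold change of each marker (horizontal axis, bars are SE from the edgeR fit) in 4 comparisons, with all 16 libraries (filled circles) and without osteoarthritic replicates 2 and 3 (open squares). Cd14 lies at 1.04 in osteoarthritic against healthy and at -0.85 in coacervate against HA, while Aif1 changes sign when the 2 libraries are left out of the comparisons with the osteoarthritic group.

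Treatment with the coacervate, cells and drug was compared in the same way. Over all 16 libraries Lyz2 and Cd14 had the most negative differences from osteoarthritic cartilage and Cd163 the most positive one. Without osteoarthritic replicates 2 and 3 the most negative were Cd14 (-1.17), Cx3cr1 (-0.95) and Cd68 (-0.70), followed by Lyz2 (-0.60) and Csf1r (-0.45), and none passed. Lyz2 was at 4564, 4521, 3973 and 5621 CPM, of which only coacervate replicate 4 reached into the osteoarthritic range, and none did on the FPKM scale (log2 fold change -0.85 ± 0.21, edgeR adjusted p = 0.0955). It passed in DESeq2 (adjusted p = 0.00266), without osteoarthritic replicate 1 (-1.02, edgeR adjusted p = 0.015) and without osteoarthritic replicate 4 (-0.86, edgeR adjusted p = 0.0394). Over all 14337 genes, 2054 passed in edgeR without replicate 1 and 1368 without replicate 4, against 21 with all libraries. Cd14 was at 18.8, 24.7, 26.8 and 14.4 CPM (-0.81 ± 0.26, adjusted p = 0.131), and overlapped with osteoarthritic replicate 2. Aif1 was at 39.1, 23.7, 22.1 and 31.8 CPM, spread around both the healthy range and osteoarthritic replicates 1 and 4. Its log2 fold change was -0.71 ± 0.28 (adjusted p = 0.181) but at 0.11 without osteoarthritic replicates 2 and 3. It passed without osteoarthritic replicate 1 (-0.94, edgeR adjusted p = 0.031), the fit in which 2054 of all genes passed. Cx3cr1, at 3.54, 4.48, 4.57 and 4.58 CPM, gave -0.53 ± 0.25 (adjusted p = 0.233).

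Cd163 was at 112, 153, 164 and 172 CPM after coacervate treatment, a log2 fold change of 0.42 ± 0.21 over osteoarthritic cartilage (edgeR adjusted p = 0.247), and 0.23 without osteoarthritic replicates 2 and 3. Cd68 was at 156, 132, 116 and 130 CPM (-0.33 ± 0.20, and -0.70 without osteoarthritic replicates 2 and 3). Csf1r (235, 250, 231 and 248 CPM), Adgre1 (36.7, 43.7, 26.2 and 29.4 CPM) and Mrc1 (99.9, 117, 126 and 121 CPM) were within 1 SE of 0 over all libraries, at -0.07 ± 0.19, 0.06 ± 0.23 and 0.15 ± 0.18. Csf1r was at -0.45 ± 0.11 (edgeR adjusted p = 0.149) without osteoarthritic replicates 2 and 3. Of the 9 markers 0 passed in edgeR, where 0.146% of all genes did. At an unadjusted p under 0.05 there were 3 of 9, against 21.8% of all genes. DESeq2 called 2 (Lyz2 and Cd14), against 5.56% of all genes, and limma 0. The groups overlapped for each of the 9 markers in CPM, where 5.60% of all genes did not. The median over the markers was -0.33, against -0.01 over all genes. Neutrophil markers were lower as well, 7 of 8 negative with none passing in edgeR and 4 called by DESeq2, at 5841 to 9291 FPKM summed against 8265 to 25658. Their part in the Lyz2 and Cd14 differences was not tested.

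The coacervate and HA groups were compared directly, which needs no osteoarthritic library for its means. Lyz2 and Cd14 were lower after coacervate without overlap: the highest coacervate value of Lyz2, 5621 CPM, was below the lowest HA value, 6326 CPM, and for Cd14 26.8 CPM was below 29.2 CPM. Their log2 fold changes were -0.65 ± 0.21 (edgeR adjusted p = 0.232) and -0.85 ± 0.26 (adjusted p = 0.197). Cd68 was at -0.41 ± 0.20 (adjusted p = 0.51) and Cd163 at 0.29 ± 0.21 (adjusted p = 0.705), and 8 of 9 markers were negative. Of the 9 markers 0 passed, where 0% of all genes did. At an unadjusted p under 0.05 there were 2 of 9, against 10.4% of all genes. DESeq2 called 0, against 2.27% of all genes, and limma 0. The 2 of 9 without overlap stand against 9.71% of all genes. In this comparison 8 of 8 neutrophil markers were negative and 6 of them did not overlap, among them the granule and calprotectin genes S100a8 (-0.75), S100a9 (-0.74) and Ngp (-0.61), none of which passed in edgeR. Without osteoarthritic replicates 2 and 3, 4 of the 8 passed, S100a8 (edgeR adjusted p = 0.0408) and S100a9 (adjusted p = 0.0487) among them, where 1.04% of all genes did. DESeq2 called 2 of the 8 and limma 0. Summed, the neutrophil markers stood at 5841 to 9291 FPKM after coacervate and 10969 to 14135 FPKM after HA. Their part in the Lyz2 and Cd14 differences was not tested.

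Against healthy cartilage, 8 of the 9 markers had log2 fold changes of -0.14 to 0.23 after coacervate. Cd68 was at -0.01 ± 0.20, Lyz2 at -0.07 ± 0.21, Mrc1 at 0.02 ± 0.18, Cd163 at -0.13 ± 0.20 and Cd14 at 0.23 ± 0.26. Of the 9 markers 0 passed in edgeR and 0% of all genes did. At an unadjusted p under 0.05 there were 0 of 9, against 3.85% of all genes, and DESeq2 and limma called 0. Cx3cr1 was the exception in rank, with all 4 coacervate libraries above the highest healthy value of 3.46 CPM (0.53 ± 0.26). It was the 1 of 9 markers without overlap, against 3.66% of all genes, and on the FPKM scale it overlapped as well (coacervate replicate 1 at 2.36, healthy replicate 3 at 2.37). In CPM, Cx3cr1 lay above the healthy range in 12 of 12 libraries of the osteoarthritic, HA and coacervate groups. Cd14 did so in 10 of 12 and Lyz2 in 7 of 12. The exceptions were coacervate replicates 1 and 4 for Cd14, and all 4 coacervate libraries and osteoarthritic replicate 1 for Lyz2. On the FPKM scale osteoarthritic replicate 2 was inside the healthy range for Cx3cr1 (2.01) and Cd14 (10.55), as was coacervate replicate 1 for Cx3cr1. The tallies share the same 4 healthy libraries, and the matching share of all genes was not taken.

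How the markers varied among themselves was read from log2 CPM. Because 2 libraries stood apart, correlations were taken over the other 14 as well as over all 16, and p-values come from permutation tests with 100000 resamples, adjusted over the 36 pairs. Cd68, Csf1r, Cd14, Cx3cr1 and Lyz2 formed the set with the highest values over the 14 libraries. This did not hold over all 16, where Csf1r and Lyz2 had r = -0.20 and Csf1r and Mrc1 had 0.77. With group means removed over the 16, Lyz2 was negative with Cd68 (-0.17), Csf1r (-0.44), Cd14 (-0.20) and Cx3cr1 (-0.21). Over 14 libraries Cd68 and Csf1r had r = 0.80 and rho = 0.75 (adjusted permutation p = 0.0128 and 0.0583), and r = 0.72 without the 2 libraries farthest from the median. Cd14 and Cx3cr1 had r = 0.80 and rho = 0.77 (adjusted permutation p = 0.0128 and 0.0583), and r = 0.78 without the 2 farthest. In all, r passed for 7 of 36 pairs over 14 libraries, each positive, and for 11 of 36 over all 16 libraries, 7 positive and 4 negative. No pair passed by both r and rho over the 14. Over all 16 libraries Cd68 and Csf1r did (adjusted permutation p = 0.0036 for r and 0.00648 for rho). So did Cd14 and Cx3cr1 there (adjusted permutation p = 0.00468 and 0.0207). The libraries include groups with different means, which enter these values.

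The 2 libraries decided several relations. Cd68 and Lyz2 had r = 0.77 over 14 libraries (rho = 0.71, adjusted permutation p = 0.0130 and 0.0697, r = 0.66 without the 2 farthest) and r = 0.31 over 16. With group means removed over the 16 it was -0.17. Csf1r and Aif1 had r = -0.72 over 16 libraries (rho = -0.44, adjusted permutation p = 0.0178 for r) and -0.21 over 14. Cd163 and Lyz2 were negative in both sets, at r = -0.69 over 16 (rho = -0.59, adjusted permutation p = 0.0178 for r) and -0.54 over 14 (adjusted permutation p = 0.175). Adgre1, the classical marker of rodent tissue macrophages, passed with no other marker in either set, and its highest r over 14 libraries was 0.36, with Mrc1, and -0.20 without the 2 farthest libraries.

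**Figure D4:**
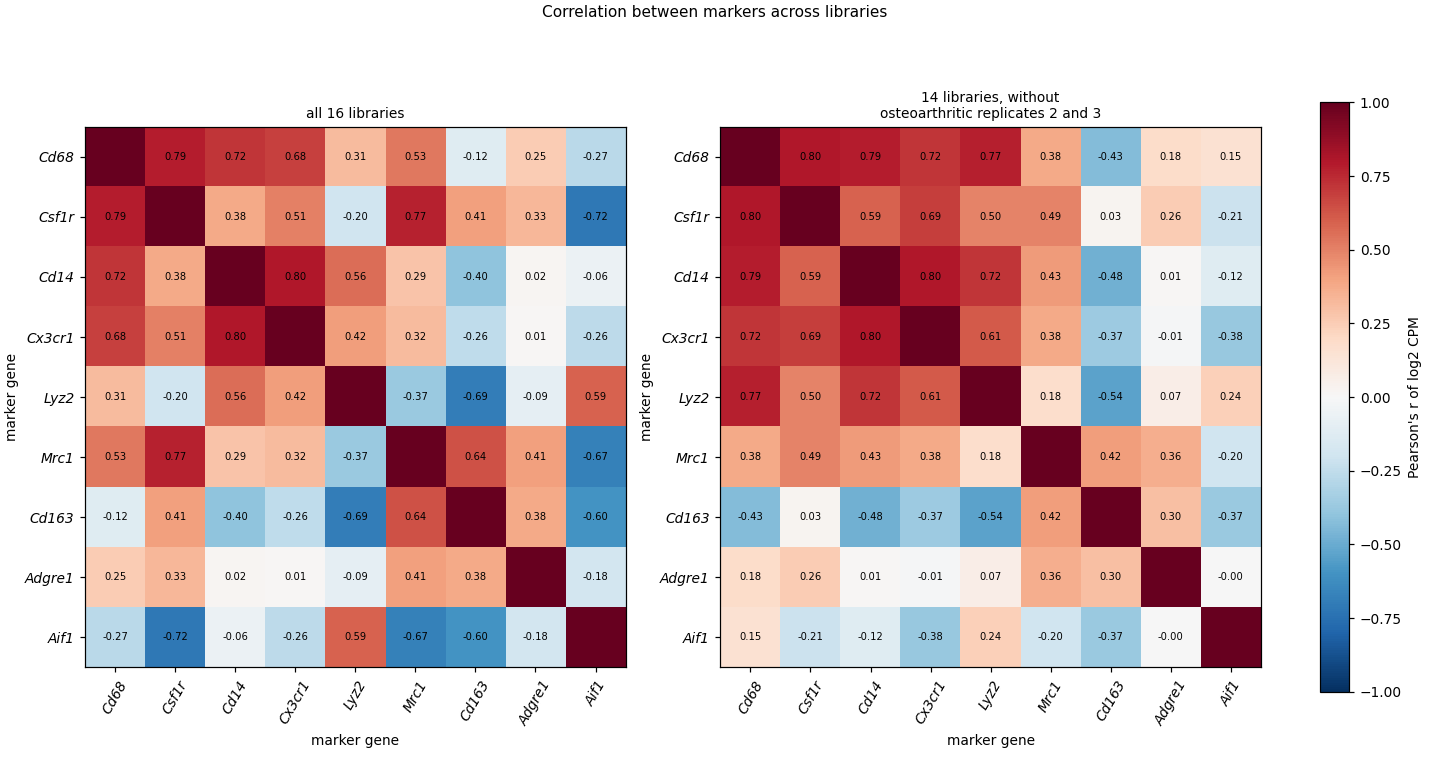
Pearson's r of log2 CPM between markers (rows and columns, color scale from -1 to 1) over all 16 libraries and over 14 without osteoarthritic replicates 2 and 3. The pair Cd68 and Lyz2 goes from 0.31 to 0.77 and the pair Csf1r and Aif1 from -0.72 to -0.21.

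Genes with the most similar profile were named by their r over the 16 libraries, as a description. For the mean of the 9 standardised markers they were Pld3 (r = 0.95), Bhlhe41 (0.90), Ptafr (0.90), Grn (0.87) and Gpnmb (0.86), and over the 14 libraries these were at 0.95, 0.90, 0.90, 0.89 and 0.91. For single markers the closest gene was Adam17 for Cd68 (0.90), Prex1 for Csf1r (0.95), Sertad4 for Cd14 (0.95), Ifi30 for Lyz2 (0.96) and Chchd6 for Aif1 (0.98). It was Fkbp10 for Cx3cr1 (0.94), Spon1 for Mrc1 (0.93), Patj for Cd163 (0.90) and Phf6 for Adgre1 (0.75).

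Other genes of the macrophage programme were taken from lists of ligands, lineage transcription factors, receptor partners, residency genes and monocyte genes. Of 32 listed genes 28 were tested. Marco was too low, and Ly96, Timd4 and Ccr2 were not analysed here. In edgeR 0 of 28 passed in each of the comparisons of osteoarthritic with healthy, HA with osteoarthritic, coacervate with osteoarthritic and coacervate with HA. At an unadjusted p under 0.05 there were 8, 3, 7 and 11 of 28, against 17.8%, 6.34%, 21.8% and 10.4% of all genes. DESeq2 called 2, 0, 6 and 2, against 2.92%, 0.0558%, 5.56% and 2.27%, and limma 0 in each. The groups did not overlap for 2, 0, 3 and 9 of the 28, against the 6.33%, 1.90%, 5.60% and 9.71% of all genes given above.

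Among the ligands, Il34, the second ligand of the Csf1r product, was at 3.29, 3.36, 2.58 and 2.42 CPM in healthy and 6.30, 6.80, 4.83 and 6.29 CPM in osteoarthritic replicates. The groups did not overlap, and osteoarthritic replicates 2 and 3 were not set apart (log2 fold change 1.05 ± 0.24, edgeR adjusted p = 0.066, and 1.11 without them). After HA it was at 4.46, 5.28, 5.19 and 3.85 CPM and after coacervate at 3.40, 4.25, 7.04 and 3.12 CPM. Csf1, the first ligand, had a log2 fold change of -0.21 ± 0.23 in osteoarthritic cartilage, and 0.17 without osteoarthritic replicates 2 and 3, with osteoarthritic replicates 2 and 3 lowest at 56.8 and 63.3 CPM against 83.2 to 116 CPM in healthy libraries. Cx3cl1, the ligand of the Cx3cr1 product, was at -0.16 ± 0.20, and at 0.011 without these libraries.

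Of 7 tested residency genes 4 were positive and 3 negative in osteoarthritic against healthy cartilage, with a median of 0.16, and -0.013 without osteoarthritic replicates 2 and 3. Among them Folr2, a folate receptor of resident macrophages, was higher in osteoarthritic cartilage (0.94 ± 0.24, edgeR adjusted p = 0.1). It was lower after coacervate than after HA without overlap, at 14.2 against 25.9 CPM (-0.86 ± 0.24, adjusted p = 0.176). Spi1, which encodes PU.1, was at 83.3, 86.4, 83.9 and 81.7 CPM in healthy and 93.0, 154, 109 and 101 CPM in osteoarthritic replicates, without overlap (0.45 ± 0.14, edgeR adjusted p = 0.178). This was 0.21 (adjusted p = 0.405) without osteoarthritic replicates 2 and 3. After HA Spi1 was at 112, 106, 102.5 and 94.2 CPM and after coacervate at 81.1, 73.5, 59.2 and 83.4 CPM, so the treated groups did not overlap either (-0.48 ± 0.14, adjusted p = 0.189, and adjusted p = 0.0448 without osteoarthritic replicates 2 and 3, which alter only the spread here). Lyve1, a hyaluronan receptor of perivascular macrophages and lymphatic vessels, had the other direction, higher after coacervate than after HA without overlap (0.74 ± 0.22, adjusted p = 0.197). Osteoclast markers, whose cells share Csf1r, were lower in osteoarthritic than in healthy cartilage without overlap for 4 of 8 tested genes, against 6.33% of all genes (median -0.27, and -0.16 without osteoarthritic replicates 2 and 3). None passed in edgeR, DESeq2 or limma in that comparison, and 3 of 8 had an unadjusted p under 0.05, against 17.8% of all genes. In coacervate against healthy cartilage 7 of the 8 were negative and 1 positive (median -0.70). There 5 of 8 were lower without overlap, against 3.66% of all genes. An unadjusted p under 0.05 was reached by 8 of 8, against 3.85%. DESeq2 called 3, against 0.126%, and edgeR and limma 0.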

How the data were processed

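Expression was measured by RNA-seq in 16 rat knee cartilage libraries, 4 per group; groups were read from the sample titles and columns from the library names. Per the labels' protocols, poly(A) RNA of RIN above 7 was made into dUTP-marked paired-end libraries. Build rn6, HISAT2 2.2.1, cutadapt 1.9, StringTie 2.1.6 and the packages edgeR and DESeq2 are listed in the submitters' processing notes, without roles. The counting tool and strand setting are not given in the sources used here. Per the file headers, the deposited table holds a raw count and an FPKM value per gene and library, and the authors had scaled FPKM to gene length and depth.

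Testing covered genes reaching 1 FPKM in 4 or more libraries, by edgeR's quasi-likelihood test on counts (TMM scaling, 1 fit of 4 group means, Benjamini-Hochberg adjustment over all tested genes, threshold 0.05). Normalised CPM use the scaled library size, and log2 CPM a prior count of 2. The spread of a group is the SD of its 4 libraries. The procedure was run on simulated counts that held no split within the osteoarthritic group. That run does not cover such a split. No pair of libraries in a group agreed within sampling noise.

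The 9 markers, the lists and the tests were chosen with earlier results of these data known. All 9 markers and the 3 ligands are named whatever their p. From the other lists at most 3 genes with the smallest p per comparison are named. The most similar genes are the 5 nearest the mean profile and the nearest to each marker, among genes with a symbol of their own. S100a8, S100a9, Ngp, the ratios to Cd68 and the choice of promoters were taken after values were seen. Alternatives were RLE scaling, no filter, DESeq2, limma on log2(FPKM + 1) and log2(FPKM + 0.1), a replicate block, a fit of the 8 libraries compared, and leaving libraries out. Promoters come from RefSeq (GRCr8) and were matched by symbol. Reads carry no molecular identifiers. Software was DESeq2 1.42.0, limma 3.58.1 and edgeR 4.0.16 in R 4.3.3, and pandas 2.3.3 in python 3.11.15.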

Additional observations from a re-analysis of the deposited data

Results flagged for a closer look

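In 4 of 36 sets (9 markers in 4 groups) a single library lay far from the other 3 of its group by Dixon's test at 95%, where chance marks about 1 set in 20. Cd163 and Mrc1 were both highest in healthy replicate 1, at 227 CPM against 153 CPM for the next and at 154 CPM against 104 CPM. Cd68 was lowest in HA replicate 4, at 135 CPM where the other 3 HA libraries lay at 191 to 194 CPM. Cx3cr1 was lowest in coacervate replicate 1, at 3.54 CPM against 4.48 CPM for the next. The test could not mark the split of the osteoarthritic group, in which 2 libraries lie on each side.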

How the results depend on the processing

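In the 4 comparisons other than treated against healthy, 864 log2 fold changes of the 9 markers were computed under 24 alternatives. Of these 812 kept their direction and side of the threshold, 15 passed where the reported value did not, and 37 changed sign. None could be lost, because 0 of the 9 markers passed in the reported fits. For osteoarthritic against healthy, the 0 markers called became 3 in DESeq2, 3 without osteoarthritic replicates 2 and 3, and 0 to 3 with 1 library left out. For coacervate against osteoarthritic they became 2 in DESeq2 and 0 to 2 with 1 library left out. For HA against healthy, 1 marker (Cd14) was called in DESeq2, where 159 of all genes were. Without osteoarthritic replicates 2 and 3 it was also 1, where 94 of all genes were called. Among only the 8 libraries compared 1 was called, and the count over all genes is not given here. The other 3 comparisons called 0 markers under every alternative run. Over all genes, osteoarthritic against healthy called 72, and 45 with no filter, 418 in DESeq2, 21 and 28 in limma on log2(FPKM + 1) and log2(FPKM + 0.1), 26 with the replicate block, 8 among only the 8 libraries compared, 164 without osteoarthritic replicates 2 and 3, and 15 to 1122 (without osteoarthritic replicate 1) with 1 library left out. HA against osteoarthritic called 0, and 8 in DESeq2, 1 and 1 in limma, and 0 to 1 with 1 left out. Coacervate against osteoarthritic called 21, and 797 in DESeq2, 3 without osteoarthritic replicates 2 and 3, and 0 with no filter, in both limma fits (0 and 0), with the replicate block (0) and among only the 8 libraries compared (0). With 1 library left out it called 0 to 2054 (without osteoarthritic replicate 1), and 1368 without osteoarthritic replicate 4. Coacervate against HA called 0, and 325 in DESeq2, 149 without osteoarthritic replicates 2 and 3, and 0 to 11 with 1 left out. The causes were not tested.

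Of the 37 changes of sign, 14 came without osteoarthritic replicates 2 and 3, 21 with 1 library left out and 2 in the limma fits. Without osteoarthritic replicates 2 and 3, against healthy, osteoarthritic cartilage gave 0.36 for Csf1r, 0.15 for Mrc1 and -0.25 for Aif1. HA against osteoarthritic gave -0.29 for Cd68, -0.27 for Csf1r, -0.019 for Adgre1, -0.064 for Cd163, -0.065 for Mrc1, -0.32 for Cd14, 0.047 for Lyz2 and 0.38 for Aif1. Coacervate against osteoarthritic gave -0.064 for Adgre1, -0.13 for Mrc1 and 0.11 for Aif1, and for Csf1r 0.11 and 0.11 in the limma fits. With 1 library left out, osteoarthritic against healthy ran from -0.20 to 0.14 for Csf1r, -0.30 to 0.15 for Adgre1 and -0.26 to 0.048 for Mrc1. HA against osteoarthritic ran from -0.063 to 0.30 for Cd68, -0.040 to 0.29 for Csf1r, -0.073 to 0.25 for Cd163 and -0.18 to 0.25 for Cd14. Coacervate against osteoarthritic ran from -0.22 to 0.11 for Csf1r and -0.088 to 0.16 for Adgre1, and coacervate against HA from -0.19 to 0.059 for Adgre1. Replicate numbers did not pair the libraries: deviations of the same number correlated at -0.386 to 0.211, and 1 of 16 libraries correlated best with its own number. The replicate block changed no call among the 9 markers. Cx3cr1, at 110 to 419 counts per library, is the marker most limited by depth.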
